A study of Mus musculus with 16 samples.

Results

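Cytosolic ribosomal proteins are the protein components of the large and the small subunit of the ribosome that translates mRNA in the cytoplasm. Their genes are spread over the genome, yet the mRNAs are made and translated together, and their amount follows cell growth. Many of these mRNAs begin with a run of pyrimidines, the terminal oligopyrimidine (TOP) tract, through which the kinase mTOR controls their translation. Rpl3l is an exception within the family, a form of Rpl3 that takes the place of Rpl3 in ribosomes of heart and skeletal muscle. The genes described here were selected by a rule on biotype and symbol. They are the protein-coding genes named Rpl or Rps with a number, the stalk proteins Rplp0, Rplp1 and Rplp2, and Rpsa. This gave 81 genes, with Rpl3l set apart, of 46078 genes in the count table. The large subunit accounts for 49 of the 81 genes and the small subunit for 32. They lie on 19 chromosomes of the mouse genome (GRCm38), with 14 of them on chromosome 7. Rps2 and Rpl3l are neighbours on chromosome 17, with 5889 bases between them.

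Cultured juxtaglomerular (JG) cells, named after the renin-producing cells of the renal afferent arteriole, received miR-106b or a control by transfection, to learn which mRNAs the microRNA affects. RNA was sequenced in 16 libraries, each from its own culture, 48 h after transfection. PolyA RNA was isolated from 4 cultures per transfection, and RNA bound to Ago2, the protein that holds microRNAs and their target mRNAs in the RNA-induced silencing complex, was immunoprecipitated from 4 other cultures per transfection. The groups are called polyA control and Ago2-IP control, after the control transfection, and polyA miR-106b and Ago2-IP miR-106b. The cells of every group were engineered to carry YFP behind the renin promoter, and the control was the precursor of a microRNA that mammals lack. The libraries held between 2579086 and 9459585 counts on genes, and the polyA control libraries were the deepest. The median was 6450000 counts with control and 3646000 with miR-106b in polyA RNA, and 3639000 with control and 3264000 with miR-106b in Ago2-IP RNA. Reads carried no molecular identifiers, so the limits given for a count of 0 cover counting error only.

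The label was checked against marker transcripts. Ren1, which encodes renin, had 0 counts in all 16 libraries, so that over the 70668386 counts of this series a level of up to 0.0425 CPM (counts of a gene per 10⁶ counts of its library) may have gone unseen. For a library taken alone that level ranges from 0.317 to 1.16 CPM. Akr1b7, a further marker of renin cells, had 3 counts with control and 2 with miR-106b over the polyA libraries, and 1 with control and 0 with miR-106b over the Ago2-IP libraries. The smooth muscle actin Acta2 was present at a mean of 757 CPM with control and 590 CPM with miR-106b in polyA RNA. It was the most abundant of a list of 9 mural and smooth muscle markers. By the test used below, 6 of these 9 rose and 1 fell with miR-106b in polyA RNA, where 19.0% of all genes rose and 21.5% fell. Transcripts of cardiac muscle were abundant, led by the heavy chain Myh6, and none of a list of 25 such genes was without counts. The name JG cells is therefore used as the label gives it, and the libraries had no detectable renin mRNA at this depth.

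Ribosomal protein mRNAs made up a smaller part of the RNA in each step from polyA control to polyA miR-106b to Ago2-IP libraries, while Rpl3l went the other way. The 81 genes together held 3.04%, 3.29%, 3.26% and 2.74% of the counts in polyA control replicates 1 to 4, and 2.28%, 1.92%, 2.35% and 1.71% in polyA miR-106b replicates 1 to 4. They held 1.15%, 1.15%, 1.13% and 1.10% in the Ago2-IP control libraries, and 1.12%, 1.10%, 1.12% and 1.15% in the Ago2-IP miR-106b libraries. Every polyA miR-106b library lay below every polyA control library, and every Ago2-IP library below both, while the Ago2-IP groups overlapped each other. The group means were 3.08% ± 0.252, 2.06% ± 0.301, 1.13% ± 0.0241 and 1.12% ± 0.0203 (SD, n = 4) in this order. In bulk RNA such as this, fewer cells of a type and less RNA per cell cannot be told apart. Large-subunit genes held 1.80% ± 0.155 of the counts with control and 1.20% ± 0.181 with miR-106b in polyA RNA (SD, n = 4), and small-subunit genes 1.28% ± 0.0962 and 0.863% ± 0.121. Pseudogenes named after a ribosomal protein gene, 237 in the table, held 0.0133% ± 0.000839 of the counts with control and 0.0107% ± 0.00123 with miR-106b in polyA RNA (SD, n = 4).

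The share of cardiac transcripts moved against that of the ribosomal proteins. The 25 cardiac genes together held 3.17%, 2.48%, 2.68% and 3.52% of the counts in polyA control replicates 1 to 4, and 4.84%, 8.37%, 6.05% and 8.10% in polyA miR-106b replicates 1 to 4. Within each of these groups the libraries with the most cardiac RNA were those with the least ribosomal protein RNA, namely polyA control replicates 1 and 4 and polyA miR-106b replicates 2 and 4. The cardiac sum of Ago2-IP RNA was between 11.2% and 11.9% with control, and between 10.9% and 11.9% with miR-106b. Mitochondrially encoded transcripts also held larger shares, with 0.894% ± 0.0442 for control and 1.46% ± 0.289 for miR-106b in polyA RNA, and 2.15% ± 0.0378 for control and 2.29% ± 0.0821 for miR-106b in Ago2-IP RNA (SD, n = 4). The part of these transcripts in the differences of ribosomal protein mRNA was not tested.

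**Figure D1:**
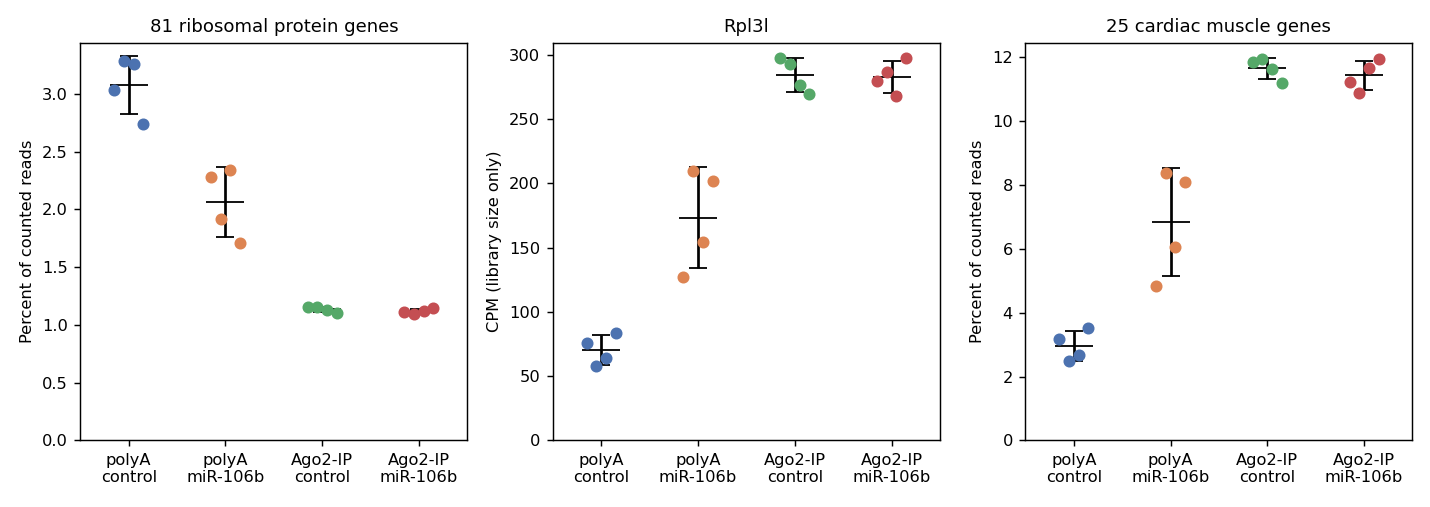
Share of all counts on the 81 ribosomal protein genes (percent), level of Rpl3l (CPM) and share of 25 cardiac genes (percent) in each of the 16 libraries, by group, with dots for libraries and bars for mean ± SD (n = 4). Ribosomal protein shares lie between 2.74% and 3.29% in polyA control and between 1.10% and 1.15% in Ago2-IP control, while Rpl3l and the cardiac share are highest in the Ago2-IP groups.

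Levels of different genes were compared as CPM per kb of annotated exon in the polyA control libraries. The median over the 79 ribosomal protein genes that passed the filter on low counts was 147 CPM per kb, against 4.36 over all genes that passed it and had an annotated length. The highest levels were those of Rplp1 (2641 ± 237 CPM per kb, SD, n = 4), an acidic protein of the stalk that recruits translation factors, Rps15 (1367 ± 78.8), a small-subunit protein close to the decoding site, and Rplp0 (1264 ± 126), the base of the stalk. Rps15 and Rplp0 did not differ beyond their spread, and Rplp1 lay above both. The lowest were Rpl24 (5.07 ± 0.958), which forms a bridge between the subunits, Rpl22l1 (5.68 ± 0.656), a homologue of Rpl22, and Rps15a (9.80 ± 1.09), a small-subunit protein whose annotated exons together cover 6270 bases. Rpl24 and Rpl22l1 did not differ beyond their spread either. Of the stretches of 50 bases in their transcripts, 81.7% for Rpl24, 58.9% for Rpl22l1 and 5.43% for Rps15a also occur in other genes. The low levels of Rpl24 and Rpl22l1 can therefore depend on how reads that fit several genes were assigned. Rpl10l and Rpl39l, homologues of Rpl10 and Rpl39 that are known from testis, did not pass the filter. Rpl10l had 1 count in all libraries together, in polyA control replicate 3, and Rpl39l had 4, of which 2 were in Ago2-IP miR-106b replicate 4.

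In polyA RNA, ribosomal protein mRNAs fell as a family with miR-106b, in both subunits, and Rpl3l rose. Of the 79 genes tested, 72 were lower in polyA miR-106b than in polyA control libraries and none was higher, where 21.5% of all 14897 genes tested were lower and 19.0% higher (edgeR quasi-likelihood F test, adjusted over all genes tested). The falls comprised 42 of 47 large-subunit and 30 of 32 small-subunit genes. The median log2 fold change was -0.56, with a range from -0.99 to -0.11, against -0.05 over all genes tested. In 69 of the 79 genes every miR-106b library lay below every control library, as was the case for 22.0% of all genes. Genes that did not pass the test were Rpl22, Rpl24, Rpl37a, Rpl39, Rpl7l1, Rps14 and Rps29, with log2 fold changes between -0.55 for Rpl39 and -0.11 for Rpl22. The count depended on single control libraries, since 42 genes passed when polyA control replicate 2 was left out, and also 42 when polyA control replicate 3 was. Calls among all genes, in either direction, numbered 4123 and 4284 in these fits, against 6034 in the main fit. The ribosomal protein medians in these fits were -0.45 and -0.46. With all 16 libraries in a single fit the median of all genes was 0.13 higher, 61.4% instead of 47.0% of all called genes were higher with miR-106b, and 66 ribosomal protein genes were lower and none higher, with a median of -0.44.

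Among small-subunit genes, Rps15a (chromosome 7, 118104377 to 118116186) had the largest fall. Its level was 56.3, 71.1, 61.2 and 57.1 CPM in polyA control replicates 1 to 4 and 33.1, 31.8, 35.0 and 21.7 CPM in polyA miR-106b replicates 1 to 4. All control libraries lay above all miR-106b libraries, and replicate 4 with miR-106b was the lowest of all. The log2 fold change was -0.99 ± 0.142 (SE, edgeR adjusted p = 0.000682). Rps27a, which is translated as a fusion with ubiquitin, was at 173, 179, 176 and 172 CPM in the control and at 102, 97.7, 120 and 71.8 CPM in the miR-106b libraries. The groups did not overlap, and the controls differed little from each other. Its log2 fold change was -0.82 (edgeR adjusted p = 0.000682). Rps12, a protein of the small-subunit head, was at 839, 905, 911 and 727 CPM in the control and at 541, 434, 580 and 344 CPM in the miR-106b libraries, again without overlap. It fell by 0.81 on the log2 scale (SE 0.152, edgeR adjusted p = 0.00136).

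Rpsa and Rps6 behaved alike in polyA RNA. Rpsa, a small-subunit protein also described as a laminin receptor, was at 735, 745, 742 and 622 CPM in the control and at 416, 430, 507 and 306 CPM in the miR-106b libraries. The 4 control libraries were all higher, although replicate 4 lay apart from the other controls. The log2 fold change was -0.76 ± 0.139 (SE, edgeR adjusted p = 0.00124). Rps6, the substrate of the S6 kinases downstream of mTOR, was at 217, 225, 214 and 186 CPM in the control and at 150, 110, 166 and 96.3 CPM in the miR-106b libraries, with no overlap. It fell by 0.67 on the log2 scale (SE 0.148, edgeR adjusted p = 0.00354). Rps15, among the highest per length, fell by 0.44 (edgeR adjusted p = 0.00837). This call was lost without polyA control replicate 1, 2 or 3, with adjusted p of 0.0877, 0.0979 and 0.0837 in edgeR's test.

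Among large-subunit genes, Rpl3 (chromosome 15, 80077793 to 80091868), a protein that reaches towards the peptidyl transferase centre, had the largest fall. It was at 337, 381, 370 and 326 CPM in polyA control replicates 1 to 4 and at 212, 176, 242 and 136 CPM in polyA miR-106b replicates 1 to 4. Every miR-106b library was below every control library. The log2 fold change was -0.86 ± 0.145 (SE, edgeR adjusted p = 0.000868). Rpl10a, a protein of the L1 stalk, was at 405, 437, 422 and 365 CPM in the control and at 242, 228, 294 and 174 CPM in the miR-106b libraries, with no overlap. It fell by 0.78 on the log2 scale (SE 0.135, edgeR adjusted p = 0.001).

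Rpl5 and Rpl11 form a particle with 5S ribosomal RNA and, when free, bind the p53 ligase Mdm2. Rpl5 was at 133, 136, 140 and 119 CPM in polyA control and at 82.1, 79.5, 103 and 63.2 CPM in polyA miR-106b libraries, without overlap, with a log2 fold change of -0.66 (edgeR adjusted p = 0.00145). Rpl11 was at 206, 215, 202 and 170 CPM in the control and at 150, 152, 158 and 110 CPM in the miR-106b libraries. All control libraries were again higher, and the log2 fold change was -0.45 (edgeR adjusted p = 0.0112). Rpl13a, often used as a reference gene in PCR, was at 644, 663, 671 and 572 CPM in the control and at 563, 448, 502 and 434 CPM in the miR-106b libraries. Here the lowest control library lay just above the highest miR-106b library, and the log2 fold change was -0.37 (edgeR adjusted p = 0.0264). Without polyA control replicate 1, 2 or 3, the call was lost for Rpl11, at edgeR adjusted p of 0.104, 0.124 and 0.0983, and for Rpl13a, at 0.177, 0.196 and 0.208. Rpl13a was also over the threshold without polyA miR-106b replicate 2 or 4, at edgeR adjusted p of 0.0671 and 0.0586, with DESeq2 size factors, at 0.0569, and with no filter on low counts, at 0.0647.

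The mRNAs of the stalk proteins were all lower with miR-106b in polyA RNA. Rplp0 was at 2000, 2272, 2268 and 1849 CPM with control and at 1559, 1200, 1488 and 986 CPM with miR-106b in polyA RNA. Rplp1 was at 1285, 1411, 1410 and 1164 CPM in the control and at 994, 862, 997 and 776 CPM in the miR-106b libraries. Rplp2 was at 356, 379, 394 and 322 CPM in the control and at 284, 281, 295 and 251 CPM in the miR-106b libraries. In all 3 genes the groups did not overlap, and replicate 4 was the lowest library of either group. The log2 fold change was -0.66 for Rplp0 (edgeR adjusted p = 0.00484), -0.52 for Rplp1 (edgeR adjusted p = 0.00616) and -0.36 for Rplp2 (edgeR adjusted p = 0.0159). Without polyA control replicate 1, 2 or 3, the edgeR adjusted p was 0.0501, 0.0711 and 0.0722 for Rplp1 and 0.126, 0.166 and 0.195 for Rplp2, and with no filter on low counts it was 0.0699 for Rplp2.

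Rpl3l (chromosome 17, 24727819 to 24736143) rose in polyA RNA with miR-106b and was highest in Ago2-IP RNA. Its level was 76.2, 58.3, 63.8 and 83.8 CPM in polyA control replicates 1 to 4 and 127, 210, 155 and 202 CPM in polyA miR-106b replicates 1 to 4. In Ago2-IP control replicates 1 to 4 it was 298, 293, 276 and 270 CPM, and in Ago2-IP miR-106b replicates 1 to 4 it was 280, 287, 268 and 298 CPM. The polyA groups did not overlap, replicates 2 and 4 with miR-106b were the highest polyA libraries, and all Ago2-IP libraries lay above them, with the Ago2-IP groups overlapping. The log2 fold change with miR-106b was 1.33 ± 0.176 in polyA RNA (SE, edgeR adjusted p = 0.000682). Polyadenylated and Ago2-bound RNA differed by 2.31 on the log2 scale between the control groups (edgeR adjusted p = 1.1e-15) and by 0.85 between the miR-106b groups (edgeR adjusted p = 0.000668). The libraries high in Rpl3l were those high in cardiac transcripts, and Myh6, the most abundant of these, had a log2 fold change of 1.24 in polyA RNA (edgeR adjusted p = 0.00107). Rpl3l is itself a transcript of cardiac muscle, and the part of the other cardiac transcripts in its rise was not tested.

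The balance of the muscle form and the general form of the same ribosomal protein was measured as the ratio of Rpl3l to Rpl3 counts. There were 0.226, 0.153, 0.173 and 0.257 counts of Rpl3l per count of Rpl3 in polyA control replicates 1 to 4, and 0.600, 1.19, 0.638 and 1.49 in polyA miR-106b replicates 1 to 4. There were 5.34, 5.19, 4.07 and 3.96 in Ago2-IP control replicates 1 to 4, and 4.54, 4.09, 4.14 and 4.14 in Ago2-IP miR-106b replicates 1 to 4. By counts, Rpl3 thus exceeded Rpl3l in every polyA control library and in polyA miR-106b replicates 1 and 3. Rpl3l had more counts in polyA miR-106b replicates 2 and 4 and in every Ago2-IP library, and the Ago2-IP groups overlapped. These counts are not adjusted for length, and the annotated exons cover 3175 bases for Rpl3 and 1643 for Rpl3l. Per kb of annotated exon, the mean in polyA miR-106b was 105.6 CPM for Rpl3l and 60.38 CPM for Rpl3. In polyA control these means were 42.91 CPM for Rpl3l and 111.2 CPM for Rpl3. On the log2 scale, with 0.5 added to each count, the mean of polyA RNA was -2.34 ± 0.345 with control and -0.14 ± 0.651 with miR-106b, and that of Ago2-IP RNA was 2.20 ± 0.226 with control and 2.08 ± 0.0694 with miR-106b (SD, n = 4). PolyA miR-106b exceeded polyA control by 2.19 (p = 0.0286 in a two-sided exact permutation test, where 70 relabellings of 4 against 4 libraries can give no smaller p). Ago2-IP control exceeded polyA control by 4.53 and Ago2-IP miR-106b exceeded polyA miR-106b by 2.22, each at the same p of 0.0286 in the exact permutation test. Between the Ago2-IP groups the difference was -0.12 (exact permutation p = 0.429). Rpl3 shared 67.1% of its stretches of 50 bases with other genes, and Rpl3l shared none, so that counts of Rpl3 can depend more on how reads that fit several genes were assigned.

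**Figure D2:**
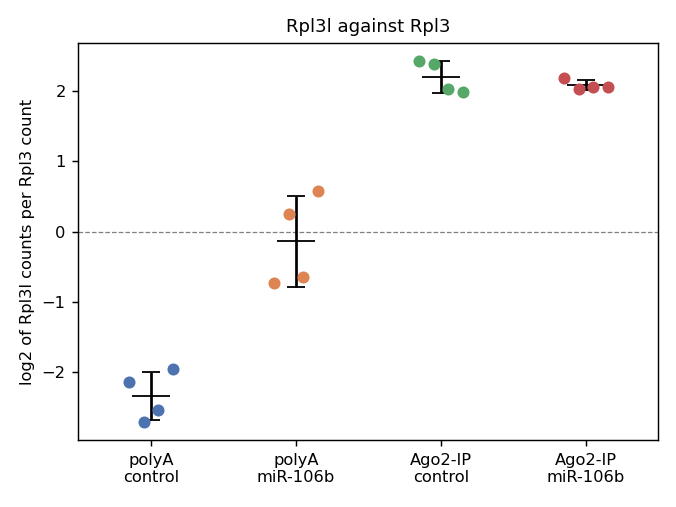
Log2 of Rpl3l counts per Rpl3 count in each of the 16 libraries, by group, with dots for libraries, bars for mean ± SD (n = 4) and a dashed line where both counts are equal. The polyA control libraries lie around -2.34 and the Ago2-IP control libraries around 2.20, while the polyA miR-106b libraries lie on both sides of the line.

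Other members come in pairs of a general form and a homologue. Rpl22 was at 96.0, 109.1, 105.5 and 97.66 CPM in polyA control and at 98.8, 91.6, 93.6 and 87.0 CPM in polyA miR-106b libraries. These groups overlapped, the log2 fold change was -0.11 (edgeR adjusted p = 0.388), and its sign turned to 0.01 with all 16 libraries in a single fit (edgeR adjusted p = 0.923) and to 0.00 without polyA control replicate 2. Rpl22l1 was at 12.9, 11.3, 11.4 and 9.66 CPM in the control and at 5.93, 7.09, 10.9 and 2.84 CPM in the miR-106b libraries. The highest miR-106b library lay above the lowest control library, and the log2 fold change of -0.72 passed the test barely (edgeR adjusted p = 0.0478). This call was lost under most alternatives, among them each fit without a library other than polyA miR-106b replicate 3, with edgeR adjusted p from 0.0557 (polyA control replicate 4 left out) to 0.186 (polyA control replicate 1 left out). Rpl7, with a mean of 174 ± 19.7 CPM for control and 113 ± 33.1 CPM for miR-106b in polyA RNA (SD, n = 4), fell by 0.60 on the log2 scale (edgeR adjusted p = 0.0144), which was lost without polyA control replicate 1, 2 or 3, at edgeR adjusted p of 0.0534, 0.105 and 0.0875. Its homologue Rpl7l1 had a log2 fold change of -0.33 that did not pass the test (edgeR adjusted p = 0.0782).

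Rps27 and its homologue Rps27l both fell in polyA RNA. Rps27 was at 181 ± 6.23 CPM in the control and 135 ± 19.2 CPM in the miR-106b libraries (SD, n = 4), with a log2 fold change of -0.40 (edgeR adjusted p = 0.0109). Rps27l was at 60.8 ± 1.31 CPM in the control and 41.8 ± 8.45 CPM in the miR-106b libraries (SD, n = 4), with a log2 fold change of -0.51 (edgeR adjusted p = 0.0072). Both calls were lost without polyA control replicate 1, 2 or 3, at edgeR adjusted p of 0.0838, 0.0924 and 0.0742 for Rps27 and of 0.0581, 0.0593 and 0.0581 for Rps27l. Rpl39, which lines the exit tunnel for the nascent chain, was at 18.9 ± 3.02 CPM in the control and 12.6 ± 5.59 CPM in the miR-106b libraries (SD, n = 4), and its log2 fold change of -0.55 did not pass the test (edgeR adjusted p = 0.0965). Rpl10, which joins the large subunit last, fell by 0.58 on the log2 scale (edgeR adjusted p = 0.0022). Rps4x, encoded on the X chromosome, was at 293, 326, 327 and 263 CPM in the control and at 206, 160, 213 and 119 CPM in the miR-106b libraries, without overlap, and fell by 0.77 (edgeR adjusted p = 0.00216). Rps4l (chromosome 6, 148354655 to 148355598), annotated as a transcribed processed pseudogene and so not among the 81 genes, went the other way, at 8.73, 8.99, 9.70 and 11.9 CPM in polyA control and at 16.5, 26.8, 18.7 and 29.5 CPM in polyA miR-106b libraries. Its groups did not overlap and its log2 fold change was 1.24 ± 0.214 (SE, edgeR adjusted p = 0.000959).

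Ago2-bound ribosomal protein mRNA was at closely similar levels with miR-106b and with control. Between the Ago2-IP groups, edgeR's quasi-likelihood test called 0 of 79 genes at an adjusted p under 0.05, as it did 0% of all 14897 genes tested, and DESeq2 and edgeR's likelihood ratio test also called 0 of the 79, with 2 and 18 calls among all genes. At an unadjusted p under 0.05 there were 3, where 5.55% of all genes had one. These were Rpl11, with a log2 fold change of -0.18, Rpl37a with -0.18 and Rpl7a with -0.12, given here because of that p. The median log2 fold change was -0.01, from -0.49 for Rpl22l1 to 0.14 for Rpl23, against 0.00 over all genes. The genes that fell most in polyA RNA were at similar levels in both Ago2-IP groups. Rps15a was at 19.7, 16.2, 19.2 and 15.8 CPM in Ago2-IP control and at 14.0, 14.2, 18.8 and 17.7 CPM in Ago2-IP miR-106b libraries. Rpl3 was at 55.7, 56.4, 67.9 and 68.0 CPM in Ago2-IP control and at 61.7, 70.1, 64.7 and 71.8 CPM in Ago2-IP miR-106b libraries. Rps12 was at 161, 171, 165 and 172 CPM with control and at 149, 170, 156 and 167 CPM with miR-106b in Ago2-IP RNA. The groups overlapped in all 3 genes. A p over the threshold does not show that the levels were equal.

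Ribosomal protein mRNAs were depleted from Ago2-IP RNA relative to polyA RNA, in both subunits, whereas Rpl3l was enriched. Between Ago2-IP control and polyA control libraries, 77 of 79 genes were lower and none higher, where 37.9% of all genes tested were lower and 35.4% higher (edgeR, adjusted over all genes). These were 45 of 47 large-subunit genes and all 32 small-subunit genes tested. The median log2 fold change was -1.12, between -2.62 and -0.12, against -0.06 over all genes. Only Rpl22, at -0.12 (edgeR adjusted p = 0.159), and Rpl24, at -0.58 (edgeR adjusted p = 0.0924), did not pass the test. Scaled by library size alone, the median of all genes was 0.29 lower, 37.6% instead of 48.3% of all called genes were higher in Ago2-IP RNA, and all 79 ribosomal protein genes were lower, with a median of -1.41. How RNA was prepared differed with the RNA kind, by oligo(dT) binding or by immunoprecipitation, and each kind came from its own cultures. Preparation, binding to Ago2 and the make-up of the cultures therefore cannot be told apart. RNA from an immunoprecipitation with another antibody was not analysed here. The 25 cardiac genes held 2.96% ± 0.475 of the counts in polyA control and 11.65% ± 0.328 in Ago2-IP control (SD, n = 4). The part of such transcripts in the depletion was not tested.

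Rpl22l1 and Rpl39 were among the most depleted, but at low counts, with 23 and 48 counts over the 4 Ago2-IP control libraries. Rpl22l1 was at 1.71, 0.279, 1.62 and 2.17 CPM in Ago2-IP control libraries and fell by 2.62 on the log2 scale from polyA control (SE 0.298, edgeR adjusted p = 3.1e-08). Rpl39 was at 1.14, 5.31, 2.71 and 3.25 CPM in Ago2-IP control libraries and fell by 2.31 (SE 0.254, edgeR adjusted p = 2.34e-08). All of these libraries lay below all polyA control libraries. The difference was better measured for Rpl3, which fell by 2.22 (SE 0.0796, edgeR adjusted p = 5.65e-17), and for Rps12, which fell by 2.05 (SE 0.0737, edgeR adjusted p = 5.76e-17). Rps26, a protein near the exit of the mRNA channel, was at 1180, 1361, 1313 and 1073 CPM in polyA control and at 321, 307, 297 and 311 CPM in Ago2-IP control libraries. Its groups were far apart, and it fell by 1.71 (SE 0.0727, edgeR adjusted p = 6.74e-16). At the other end, Rplp2 fell by only 0.50 (edgeR adjusted p = 9.25e-07), while Rplp0 fell by 1.59 (edgeR adjusted p = 2.32e-15) and Rplp1 by 1.21 (edgeR adjusted p = 1.42e-13).

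With miR-106b the Ago2-IP and polyA libraries differed in the same direction. Between Ago2-IP miR-106b and polyA miR-106b libraries, 71 of 79 genes were lower and none higher, where 19.8% of all genes tested were lower and 18.6% higher (edgeR, adjusted over all genes). The median log2 fold change was -0.72, between -2.51 and -0.00, against -0.04 over all genes. The largest falls were those of Rpl22l1 (-2.51) and Rpl39 (-2.19), with 13 and 31 counts over the Ago2-IP miR-106b libraries, followed by Rps12 (-1.41), Rpl3 (-1.36), Rps26 (-1.26) and Rps20 (-1.11), a protein of the small-subunit head. Rps20 was at 472, 334, 432 and 290 CPM in polyA miR-106b and at 158, 154, 172 and 153 CPM in Ago2-IP miR-106b libraries. The lowest polyA library lay above the highest Ago2-IP library. Scaled by library size alone, the median of all genes was 0.15 lower, 34.0% instead of 48.5% of all called genes were higher, and 75 ribosomal protein genes were lower and none higher. The comparisons of this series share groups, so that their values stand side by side and are not independent of each other.

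The ratio of Ago2-IP to polyA RNA of many ribosomal protein genes rose with miR-106b, while that of Rpl3l fell. In the test of the interaction of RNA kind and transfection over all 16 libraries, the ratio rose for 39 of 79 genes and fell for none, where it rose for 7.62% and fell for 19.7% of all genes tested (edgeR, adjusted over all genes). The 39 genes were 23 of the large and 16 of the small subunit. The median log2 change of the ratio was 0.38, between -0.15 and 0.83, against -0.07 over all genes. The largest rises were those of Rpl3 (0.83, edgeR adjusted p = 0.000842), Rps15a (0.72, edgeR adjusted p = 0.0137), Rps4x (0.64, edgeR adjusted p = 0.0114), Rps27a (0.63, edgeR adjusted p = 0.0105) and Rpl23 (0.63, edgeR adjusted p = 0.0136), a large-subunit protein that can also bind Mdm2. For Rpl23 the polyA level was 138, 149, 128 and 129 CPM in control and 83.9, 76.4, 120 and 66.1 CPM in miR-106b libraries, and the Ago2-IP level was 35.7, 43.9, 32.2 and 45.1 CPM in control and 45.4, 42.0, 44.3 and 41.6 CPM in miR-106b libraries. The polyA groups did not overlap and the Ago2-IP groups did. Over the 79 genes, the median log2 fold change with miR-106b in the fit of all 16 libraries was -0.44 in polyA RNA. In Ago2-IP RNA it was -0.03. This fit called 66 of the genes lower in polyA RNA and 0 in either direction between the Ago2-IP groups. The ratio thus rose alongside a fall of its polyA part, with no detected change of its Ago2-IP part. Rpl3l had a log2 change of the ratio of -1.48 ± 0.189 (SE, edgeR adjusted p = 1.87e-05). The count depended on the scaling and on single libraries. It was 64 with library size alone and 64 with TMM (trimmed mean of M values) scaling within each RNA kind, where the median of all genes was 0.17 and 0.15 higher and 46.3% and 45.0% instead of 27.9% of all called genes rose. With polyA control replicate 2 left out the count was 24, with polyA miR-106b replicate 4 left out it was 25, and no gene of the 79 fell in these fits. Calls among all genes, in either direction, numbered 3336 and 3423 in the fits without these libraries, against 4072 with all 16 libraries.

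**Figure D3:**
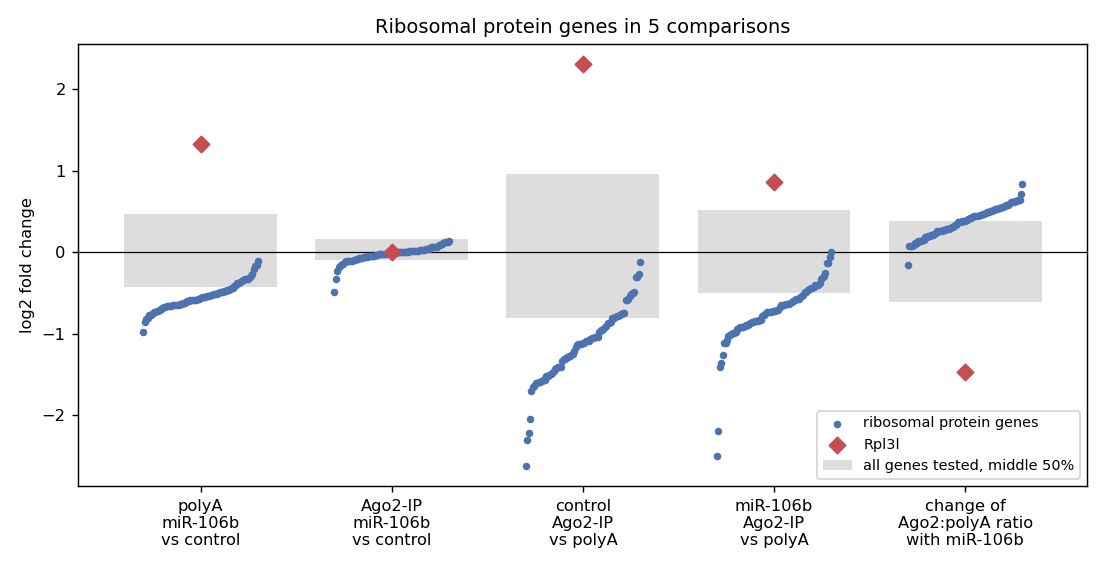
Log2 fold change (vertical axis) of the 79 ribosomal protein genes tested, 1 dot per gene, with Rpl3l as a diamond and the middle 50% of all genes tested in grey, for the 5 comparisons on the horizontal axis. Ribosomal protein genes lie below 0 in polyA RNA with miR-106b and in both comparisons of Ago2-IP with polyA RNA, close to 0 between the Ago2-IP groups and mostly above 0 for the change of the ratio, with Rpl3l on the opposite side wherever it passed the test.

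Genes with related roles were examined as gene lists, to be read against the shares of all genes tested, of which 21.5% fell and 19.0% rose with miR-106b in polyA RNA and 37.9% were lower and 35.4% higher in Ago2-IP control than in polyA control. In the list of elongation factors and other mRNAs known for a TOP tract, 13 of 16 fell and 1 rose with miR-106b in polyA RNA, and the median log2 fold change was -0.69. The largest falls were those of Nap1l1 (-1.28), a histone chaperone, and Vim (-1.20), the intermediate filament vimentin, and the rise was that of Naca (0.67), part of the nascent polypeptide-associated complex, which has a long form in muscle. Against polyA control, 15 of the 16 were lower in Ago2-IP control and 1, Naca, was higher. The elongation factor Eef1a2, the form of muscle and neurons, was at 605, 477, 474 and 662 CPM with control and at 893, 1588, 1140 and 1558 CPM with miR-106b in polyA RNA, and rose by 1.25 (edgeR adjusted p = 0.000697). The general form Eef1a1 fell by 0.84 (edgeR adjusted p = 0.00602), so that this pair divided as Rpl3l and Rpl3 did.

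Genes of ribosome assembly and of RNA polymerase I are given next, where 21.5% of all genes tested fell and 19.0% rose with miR-106b in polyA RNA. Of 30 ribosome assembly genes, 26 fell and 0 rose in polyA RNA, with a median log2 fold change of -0.70, and 28 were lower and 0 higher in Ago2-IP control than in polyA control, where 37.9% of all genes were lower. Npm1, the nucleolar chaperone nucleophosmin, was at 200, 224, 215 and 178 CPM in polyA control and at 81.7, 83.2, 125 and 51.1 CPM in polyA miR-106b libraries, without overlap, and fell by 1.25 on the log2 scale (edgeR adjusted p = 0.000682). Nop56, a core protein of the small nucleolar particles that guide methylation of ribosomal RNA, fell by 1.19 (edgeR adjusted p = 0.000682). Of 14 genes of RNA polymerase I and its factors, 5 fell and 0 rose in polyA RNA, with a median of -0.30. Polr1b, the second-largest subunit, fell by 0.67 (edgeR adjusted p = 0.00128). Taf1d, part of the promoter selectivity factor, fell by 0.99 at levels between 0.71 and 5.60 CPM (edgeR adjusted p = 0.0482), a call that was lost without any single one of polyA control replicates 1, 2 and 3 and polyA miR-106b replicates 1, 3 and 4, at up to 0.225 in edgeR without polyA control replicate 2. For ribosome assembly genes the Ago2 to polyA ratio rose for 16 and fell for 0, and for RNA polymerase I genes it rose for 3 and fell for 0, where it rose for 7.62% and fell for 19.7% of all genes.

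Of 15 genes that regulate ribosomal protein mRNA, 7 fell and 2 rose with miR-106b in polyA RNA, with a median log2 fold change of -0.32, where 21.5% of all genes tested fell and 19.0% rose. Myc, a transcription factor that drives ribosome production, was at 115, 134, 120 and 103 CPM in polyA control and at 31.4, 44.9, 68.1 and 20.2 CPM in polyA miR-106b libraries, far below all controls. Its log2 fold change was -1.50 (edgeR adjusted p = 0.00131). Eif4ebp1, a repressor of cap-dependent initiation and target of mTOR, fell by 0.74 (edgeR adjusted p = 0.00139). Mtor itself rose by 0.42 (edgeR adjusted p = 0.0192), and Tsc2, which restrains mTOR, rose by 0.38 (edgeR adjusted p = 0.0158). The call of Mtor was lost without polyA miR-106b replicate 2 or 4, at edgeR adjusted p of 0.0597 and 0.0537. In Ago2-IP control against polyA control, 9 of the 15 were lower and 4 higher, against 37.9% and 35.4% of all genes.

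Mitochondrial ribosomal proteins, which serve a separate ribosome, were examined beside the cytosolic ones. Of 77 such genes 75 were tested, and 1 without counts is a copy of Mrps23 on a patch of the genome. With miR-106b 17 rose and 4 fell in polyA RNA, and the median log2 fold change was 0.18, against -0.05 over all genes tested. Of all genes tested 19.0% rose and 21.5% fell. The share of mitochondrial ribosomal protein genes that rose was near that of all genes, while the share that fell was below it. The largest changes were the rises of Mrpl55 (0.82) and Mrps23 (0.67) and the falls of Mrps6 (-0.88) and Mrps22 (-0.55). The call of Mrps22 was lost without polyA control replicate 1, 2 or 3, at edgeR adjusted p of 0.109, 0.0556 and 0.0724. In Ago2-IP control against polyA control, 57 were higher and 4 lower, against 35.4% and 37.9% of all genes. The Ago2 to polyA ratio fell with miR-106b for 26 and rose for 1, against 19.7% and 7.62% of all genes. Together they held 0.253% ± 0.00252 of the counts with control and 0.287% ± 0.0183 with miR-106b in polyA RNA (SD, n = 4). Between the Ago2-IP groups no gene of any of these lists passed edgeR's test, as 0 of all genes did.

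Markers of several cell types moved in polyA RNA together with the fall of ribosomal protein mRNA, where 19.0% of all genes tested rose and 21.5% fell. In the list of cardiac muscle, 23 of 24 genes tested of 25 rose and 0 fell with miR-106b, with a median log2 fold change of 1.23, and in Ago2-IP control 23 were higher than in polyA control, with a median of 2.26, where 35.4% of all genes were higher. Myh6 was at 10720, 8371, 9054 and 11930 CPM in polyA control, at 16280, 28290, 20580 and 27510 CPM in polyA miR-106b and between 36740 and 40530 CPM in the Ago2-IP libraries. Markers of endothelium rose for 9 of 10 genes, led in level by Cdh5, those of leukocytes for 7 of 7, led by Lyz2, those of red cells for 4 of 5, led by Hbb-bs, and those of fibroblasts for 6 of 6, led by Col1a1, and none of these genes fell. Of mural and smooth muscle markers 6 of 9 rose and 1 fell. Of fast skeletal muscle 2 of 10 markers were tested, without a call in either direction, and the sum of all 10 was at most 10.5 CPM in a library. Of kidney epithelium 2 of 9 were tested and both fell, and the sum of all 9 was at most 31.1 CPM in a library. In Ago2-IP control against polyA control, all 10 endothelial, 7 leukocyte, 5 red cell and 6 fibroblast markers were higher. Their median log2 fold changes were 2.17, 2.12, 2.15 and 1.87, where 35.4% of all genes were higher and 37.9% lower. Of mural and smooth muscle markers 7 were higher and 2 lower in that comparison. Of fast skeletal muscle 1 was higher, and of kidney epithelium 1 was lower. Apart from Ren1 no gene of these lists was without counts over all libraries. Their summed levels in polyA control replicates 1 to 4 and polyA miR-106b replicates 1 to 4 were 493, 416, 427, 548, 628, 1151, 853 and 1049 CPM for endothelium, and 173, 125, 140, 183, 260, 414, 318 and 405 CPM for leukocytes. The sums of red cell markers were 42.4, 28.5, 37.0, 43.6, 65.0, 113, 77.3 and 108 CPM in the same order, those of fibroblast markers 12030, 11110, 11300, 13050, 27060, 16860, 14680 and 20000 CPM, and those of mural markers 1642, 1699, 1576, 1572, 1872, 1430, 1468 and 1637 CPM. Replicates 2 and 4 with miR-106b were the highest for endothelium, leukocytes, red cells and the cardiac list, and replicate 1 for fibroblasts. The part of these transcripts in the change of ribosomal protein mRNA was not tested.

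Pairing to the microRNA was examined in the 3′ untranslated regions (3′UTR) of GENCODE M21 (GRCm38), with the longest 3′UTR taken for each gene. The mature sequence from RefSeq (GRCm38.p6, chromosome 5, 138165787 to 138165807, minus strand) is shown with its seed, bases 2 to 8, in capitals, because the seed sets which sites were searched. Sites were GCACTTT, which pairs with all of the seed, and CACTTTA, which pairs with bases 2 to 7 and has A opposite the first base, and the sites share the letters CACTTT. Of 79 ribosomal protein genes, 3 held GCACTTT (3.80%), against 14.8% of the 13222 genes tested with a 3′UTR, and 1 held CACTTTA (1.27%), against 13.7%. The 3′UTRs of the ribosomal proteins had a median length of 173 bases, against 1222 for all genes tested. The genes with a site were Rpl31, Rpl9, Rps15a and Rps20, and they are named because of the site. All of these sites lie in annotated 3′UTRs longer than the ribosomal protein median of 173 bases, of 578, 1955, 4728 and 3167 bases. Counts per gene do not show which transcript was present. For each gene 1 site is printed, with 10 bases on either side and the match in capitals, at chr1:39371508-39371514 (plus strand) for Rpl31, chr5:65390281-65390287 (minus) for Rpl9, chr7:118108598-118108604 (minus) for Rps15a, and chr4:3832978-3832984 (minus) for Rps20.
mmu-miR-106b-5p: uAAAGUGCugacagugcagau
Rpl31: tcacagaagtCACTTTAttaggattgt
Rpl9: tacaaaggagGCACTTTcagatattgg
Rps15a: gtatctgtctGCACTTTgtctcccaga
Rps20: tacatgaattGCACTTTgtacatgctt

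In polyA RNA all of the genes with a site fell with miR-106b, as most members did, by a log2 fold change of -0.68 for Rpl31, -0.55 for Rpl9, -0.99 for Rps15a and -0.59 for Rps20, each past edgeR's threshold. The call of Rps20 was lost without polyA control replicate 2 or 3, at edgeR adjusted p of 0.0609 and 0.0636. Between the Ago2-IP groups their log2 fold changes were 0.02, -0.11, -0.12 and -0.00, and none passed the test. Only these 4 of the 72 genes that fell held a site of either kind.

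Transcription start regions were taken from RefSeq (GRCm38.p6), where 62 of the 82 genes, Rpl3l among them, matched a promoter of 300 bases. A run of at least 9 pyrimidines (C or T) within 20 bases of the annotated start was present in 28 of 62 genes (45.2%). It was present in 12.4% of all 27025 genes with a promoter, whether or not they were expressed here. A gene counted if any of its promoters had the feature. CCGGAAGT, a core of ETS family sites, was found on either strand in 12 (19.4%, against 4.31% of all genes with a promoter). GCCATCTT, a core of YY1 sites, was found in 6 (9.68%, against 3.19%) and TATAAA in 7 (11.3%, against 15.7%). A match of letters is a description and not a site in use. The median log2 fold change with miR-106b in polyA RNA was -0.57 for genes with the pyrimidine run and -0.58 for those without. Windows of 30 bases, from 10 before the annotated start onwards, are shown for Rps12 and Rps6, which fell, for Rpl22l1, whose call was not stable, and for Rpl3l, which rose, with the longest pyrimidine run in capitals. They lie at chr10:23787190-23787219 (minus strand), chr4:86857348-86857377 (minus), chr3:28805498-28805527 (plus) and chr17:24727816-24727845 (plus).
Rps12: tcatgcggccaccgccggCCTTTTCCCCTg
Rps6: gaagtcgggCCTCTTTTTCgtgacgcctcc
Rpl22l1: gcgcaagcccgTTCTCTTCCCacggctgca
Rpl3l: ttctagctctgtcatttgaCCTCTggtgcc

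Ribosomal protein genes have many near-identical copies in the genome, so counts of single members can depend on how reads that fit several genes were assigned, which is not given in the sources used here. Of all stretches of 50 bases in their transcripts, a median of 38.3% per gene also occurred in another gene, with a range from 0% to 95.1%. Among the 40 genes at or above this median, 38 were lower with miR-106b in polyA RNA, with a median log2 fold change of -0.60, and among the 39 genes below it 34 were lower, with a median of -0.52, where 21.5% of all genes tested were lower. In Ago2-IP control against polyA control, 39 of 40 genes (median -1.23) and 38 of 39 genes (median -0.94) were lower, where 37.9% of all genes were. The part of read assignment in these differences was not tested. Libraries were not strand-specific, so reads of a gene and of an antisense partner could not be told apart.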

How the data were processed

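The members and the gene lists were chosen with earlier results of these data known. Gene counts as deposited by the authors were used, and their processing notes name TopHat2 2.0.10, Bowtie2 and HTSeq on GRCm38. Libraries held 2579086 to 9459585 counts. Genes with at least 1 CPM in at least 3 of the 4 libraries of any group were tested, 14897 in all. Tests were edgeR 4.0.16 quasi-likelihood F tests with TMM scaling, robust dispersion, two-sided, in R 4.3.3, and p was adjusted after Benjamini and Hochberg over every gene tested, with a threshold of 0.05. The Rpl3l to Rpl3 ratio was tested by exact permutation with 0.5 added to both counts. Levels are CPM by library size, fold changes use TMM. Genes were named for the largest changes, for the extremes of level per kb, as stalk proteins or homologue pairs, for known roles, or for a seed site. Lists covered TOP and elongation mRNAs, assembly, RNA polymerase I, regulators, mitochondrial ribosomal proteins and cell type markers. Alternatives were DESeq2 1.42.0, a likelihood ratio test, other scalings and filters, a replicate block and leaving out each library. Python 3.11.15, numpy 2.4.6, pandas 2.3.3 and scipy 1.17.1 were used.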

Additional observations from a re-analysis of the deposited data

Results flagged for a closer look

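A rule looked for single libraries that lie apart from the other 3 of their group, in 124 groups of values, and by chance it picks out about 1 in 20 groups. It picked out 6. Rpsa was at 622.5 CPM in polyA control replicate 4, where the others were between 734.8 and 745.5 CPM. Rpl10a was at 95.53 CPM in Ago2-IP control replicate 4, where the others were between 113.7 and 116.3 CPM. Rpl5 was at 41.45 CPM in Ago2-IP miR-106b replicate 2, where the others were between 51.47 and 53.4 CPM. Rpl7l1 was at 55.55 CPM in polyA miR-106b replicate 1, where the others were between 38.59 and 41.35 CPM. Rpl24 was at 5.14 CPM in Ago2-IP control replicate 1, where the others were between 1.955 and 2.434 CPM. The log2 ratio of Rpl3l to Rpl3 was 2.179 in Ago2-IP miR-106b replicate 1, where the others were between 2.03 and 2.048.

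A second rule listed named genes whose change with miR-106b differed between Ago2-IP and polyA RNA, given as the log2 change of the ratio, where edgeR's interaction test gave an adjusted p below 0.05. Large-subunit genes were Rpl3 at 0.8309, Rpl23 at 0.6295, Rpl10a at 0.5533, Rplp0 at 0.4844 and Rpl10 at 0.4279. Small-subunit genes were Rps15a at 0.717, Rps4x at 0.6352, Rps27a at 0.6347, Rps12 at 0.6134, Rpsa at 0.61, Rps6 at 0.4943, Rps20 at 0.4373 and Rps26 at 0.42. Rpl3l at -1.476 and the pseudogene Rps4l at -1.241 differed in the other direction. With 1 of the 16 libraries left out, the call was lost in 6 fits for Rplp0, 10 for Rps6, 12 for Rps20 and 12 for Rps26. The highest edgeR adjusted p was 0.068 for Rplp0 and 0.098 for Rps20, each without polyA control replicate 3, 0.0887 for Rps6 without Ago2-IP control replicate 1, and 0.0991 for Rps26 without polyA control replicate 2.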

How the results depend on the processing

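No reported change that passed its test reversed its direction under an alternative, while values near 0 that did not pass, such as that of Rpl22 in polyA RNA, could change sign. The direction of the ribosomal protein medians was the same under every scaling. The count of lower genes in polyA RNA with miR-106b was 72, and it was 42 without polyA control replicate 2, also 42 without replicate 3 of that group, and between 42 and 72 over all fits without a library. Calls among all genes numbered 4123 without polyA control replicate 2 and 4284 without replicate 3 of that group, against 6034. The cause was not tested. The median in Ago2-IP control against polyA control was -1.41 with library size only, against -1.12.

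The count of genes whose Ago2 to polyA ratio rose was 64 with TMM within each RNA kind, 64 with library size only, 24 without polyA control replicate 2 and 25 without polyA miR-106b replicate 4, against 39. Without a library it was between 24 and 53. Calls among all genes numbered 3336 without polyA control replicate 2 and 3423 without polyA miR-106b replicate 4, against 4072.

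Without a library, the count was between 77 and 78 in Ago2-IP control against polyA control, 0 between the Ago2-IP groups, and between 66 and 73 in Ago2-IP miR-106b against polyA miR-106b. The medians lay between -0.62 and -0.45 in polyA RNA, -0.03 and -0.01 between the Ago2-IP groups, -1.18 and -1.08 in the control and -0.79 and -0.67 in the miR-106b comparison of RNA kinds, and 0.33 and 0.47 for the ratio. The log2 difference of the Rpl3l to Rpl3 ratio lay between 1.96 and 2.39, -0.19 and -0.05, 4.41 and 4.66, and 2.02 and 2.45 in the first 4 of these comparisons. With 2 instead of 0.5 added to the counts it was 2.19, -0.12, 4.52 and 2.21.

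With a replicate block in the model the counts were 69 in polyA RNA, 0 between the Ago2-IP groups, 77 and 69 between RNA kinds and 38 for the ratio. Libraries of the same number did not pair, with correlations of deviations between -0.421 and 0.261, so the block was not used. DESeq2 gave 70, 0, 77, 73 and 48 in this order, the likelihood ratio test 74, 0, 78, 71 and 42, DESeq2 size factors 64, 0, 77, 71 and 45, no filter 65, 0, 78, 71 and 55, and a filter of 10 counts in every library 72, 0, 75, 71 and 52. Rpl39, which did not pass in polyA RNA, passed with the likelihood ratio test, with no filter, with the block and without polyA miR-106b replicate 3.

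Limits are that the data are bulk RNA of cultures, that each group had 4 libraries, that polyA and Ago2-IP RNA came from different cultures and preparations, that depth differed between groups, and that shares of a whole are bound to each other.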
